A study of Mus musculus with 14 samples.

Results

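The 10 genes described here encode enzymes that set the synthesis of retinoic acid (Rdh10, Dhrs3, Aldh1a1 and Aldh1a2), its nuclear receptors (Rara, Rarb, Rarg, Rxra and Rxrb) and an enzyme that breaks it down (Cyp26b1). They were taken by symbol from the 55367 gene symbols of the count tables, and all 10 were found in both tables. They were picked with the results of both comparisons known, so their differences between groups are given as a description, without a test.

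Messenger RNA was sequenced in 14 libraries from lineage-negative mouse bone marrow cells, the marrow fraction depleted of mature blood cells, of wild-type genotype. In the first experiment the cells carried a lentivirus with luciferase (LUC, 3 libraries) or with SETBP1-D868N, a mutant of the nuclear protein SETBP1 (3 libraries). In the second experiment all cells carried SETBP1-D868N, and they received DMSO, the solvent (4 libraries), or PF-9363, an inhibitor of MYST histone acetyltransferases, at 2.5 µM for 4 days (4 libraries). All cells grew in serum with the cytokines SCF, IL6 and IL3. No luciferase cells received PF-9363, and the age and number of the mice, and whether the replicates came from separate mice or cultures, are not given in the sources used here. The p-values therefore measure the spread between these libraries, which may be technical.

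Retinoic acid is made from vitamin A (retinol) in 2 steps. Retinol dehydrogenases such as Rdh10 oxidise retinol to retinal, and Dhrs3 catalyses the reverse step. Retinaldehyde dehydrogenases such as Aldh1a1 and Aldh1a2 then oxidise retinal to retinoic acid, which binds receptors of the RAR family on DNA as a partner of an RXR receptor, while CYP26 enzymes degrade it. In the marrow, retinoic acid is known for promoting granulocyte maturation, and its synthesis by Aldh1a2 is a known property of some dendritic cells and macrophages.

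The depth was 60147266 to 68730322 counts per library for LUC and SETBP1-D868N, and 7083731 to 10359093 for DMSO and PF-9363. A library with a count of 0 for a gene allows up to 0.0499 CPM, the count scaled to the library total, at the lower depth of the first experiment and 0.424 CPM at that of the second, for counting error alone. Setbp1 held 5, 6 and 6 counts in the LUC libraries and 23, 20 and 24 in the SETBP1-D868N libraries; these are counts at the mouse gene, and how reads of the introduced copy were counted is not given in the sources used here. The libraries were not of 1 cell type: neutrophil markers, S100a8 and S100a9 among them, summed to 24600 to 25600 CPM in LUC libraries and to 18200 to 21500 CPM in DMSO libraries. Stem and progenitor markers summed to 792 to 815 and 175 to 206 CPM. In such bulk libraries, fewer cells of a type and less RNA per cell cannot be told apart.

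Levels of different genes were compared in CPM per kilobase of exon, the scale of all values in this paragraph. The receptors Rxrb and Rara and the enzymes Aldh1a2 and Dhrs3 stood highest in LUC libraries, and Rarb, Cyp26b1 and Aldh1a1 lowest. In LUC libraries Aldh1a2 stood first at 23.9 ± 2.21 (SD, n = 3), followed by Rxrb at 21.1 ± 0.363, Rara at 18.2 ± 1.04 and Dhrs3 at 17.4 ± 0.436. Rara and Dhrs3 did not differ beyond their spread. Rarg (8.53 ± 0.267), Rxra (4.53 ± 0.158) and Rdh10 (1.78 ± 0.0833) came next. Aldh1a1 (0.182 ± 0.0108), Cyp26b1 (0.0340 ± 0.00792) and Rarb (0.0283 ± 0.0112) closed the order, and the last pair did not differ beyond their spread. With SETBP1-D868N Rxrb stood first at 22.4 ± 1.40, with Aldh1a2 (13.96 ± 0.536) and Rara (13.7 ± 0.596) within their spread of each other. In DMSO libraries Aldh1a2 stood at 0.0869 ± 0.0811 (n = 4), not apart from Cyp26b1, Rarb and Aldh1a1 beyond their spread. With PF-9363 Dhrs3 stood first at 31.7 ± 2.39, Rara and Rxrb did not differ beyond their spread, and Aldh1a2 (7.39 ± 1.75) lay beside Rxra (5.45 ± 0.645). The order depended on the gene length: with the median transcript length in place of all exons, 14 of 40 positions stayed. Among the lowest genes, Rarb then stood above Cyp26b1 in every group. With that length Rarg rose from the fifth to the second place in LUC libraries and Aldh1a2 fell from the first to the fifth.

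**Figure D1:**
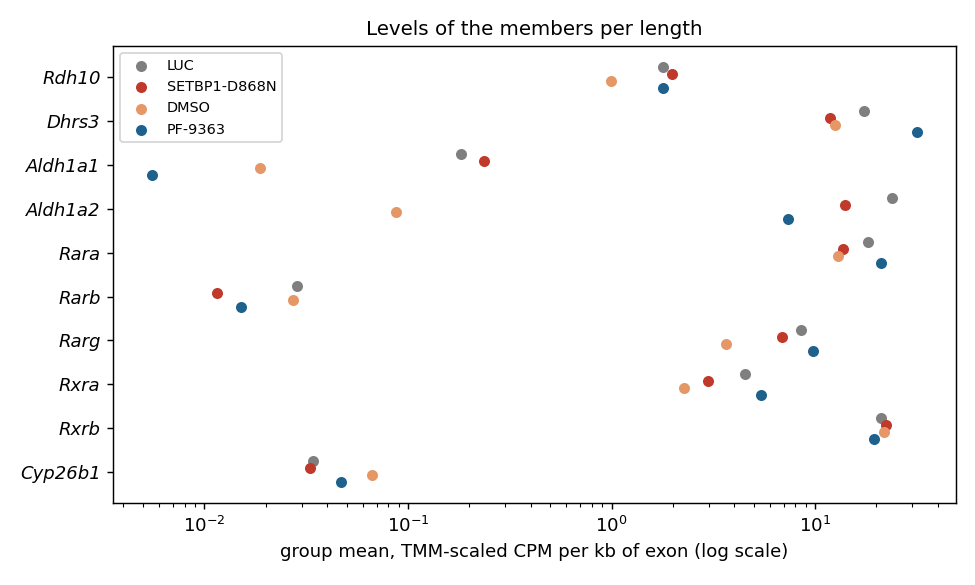
Group means of the 10 genes in CPM per kilobase of exon (x axis, log scale) by gene, with 1 point per group. Rarb, Cyp26b1 and Aldh1a1 lie lowest in LUC, SETBP1-D868N and PF-9363 libraries, and Aldh1a2 joins them in DMSO libraries, at 0.0869.

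Aldh1a2 makes retinoic acid from retinal. The gene lies on chromosome 9 (GRCm38, 71215789 to 71296243, plus strand) with 1 annotated transcript, and no exon of another gene overlaps its exons. The 250 bases before its RefSeq start site (GRCm38.p6, chr9:71215539-71215788, plus strand) are shown because this gene had the largest fold change among the 10, and capitals mark the CpG dinucleotides, the sites of DNA methylation in mammals.
Aldh1a2 upstream: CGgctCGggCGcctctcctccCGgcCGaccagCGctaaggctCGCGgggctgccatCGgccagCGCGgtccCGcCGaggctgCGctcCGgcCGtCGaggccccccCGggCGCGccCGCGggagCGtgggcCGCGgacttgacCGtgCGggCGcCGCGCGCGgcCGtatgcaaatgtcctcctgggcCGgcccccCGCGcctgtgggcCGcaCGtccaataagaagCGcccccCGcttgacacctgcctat
The 300-base window around that start, from 250 bases before to 50 after, held 50 CpG dinucleotides, a number that 99.3% of all 32841 promoter windows of the RefSeq table do not exceed. The median window held 7, and the first start of Rxra, with 55, held more than that of Aldh1a2.

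In the first experiment Aldh1a2 stood at 59.9, 51.7 and 50.9 CPM in LUC libraries and at 31.7, 32.8 and 30.3 CPM with SETBP1-D868N. Every SETBP1-D868N library lay below every LUC library, and the log2 fold change was −0.78 (SE 0.064). Counts of Aldh1a2 were 3, 4, 0 and 1 under DMSO and 145, 100, 109 and 204 under PF-9363. In CPM these were 0.298, 0.399, 0 and 0.0907 against 14.9, 12.9, 17.0 and 22.1. The groups lay far apart: the log2 fold change was 6.36 (SE 0.34), and the ratio of summed counts, scaled to the libraries' totals, was 88.1 with a 95% counting interval of 44.4 to 205. The gene entered the second test only through the PF-9363 libraries.

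Aldh1a2 had 31.6 ± 1.21 CPM (n = 3) in the SETBP1-D868N libraries of the first experiment and 0.197 ± 0.184 CPM (n = 4) in the DMSO libraries of the second, although both carry the same construct. These experiments differ in RNA input, library kit and sequencing depth and were scaled separately, so no test was made between them. The cells of the DMSO libraries had also received the solvent and were taken at day 4, while no day is given for the first experiment. Rara (59.8 and 56.7 CPM), Rxrb (88.9 and 86.1 CPM) and Dhrs3 (34.5 and 36.6 CPM) stood close together in the same libraries. Rxra stood at 16.3 and 12.3 CPM, Rarg at 29.2 and 15.5, Rdh10 at 8.24 and 4.13 and Aldh1a1 at 1.16 and 0.0928. Marker sums were also lower in the DMSO libraries for mast cells and basophils (6270 to 6390 and 1250 to 1600 CPM) and for dendritic cells (102 to 113 and 21.4 to 26.9 CPM). Stem and progenitor sums (831 to 871 and 175 to 206 CPM) and erythroid and megakaryocyte sums (395 to 428 and 50.9 to 62.2 CPM) were lower as well. So were the B, T and NK cell sums (78.5 to 84 and 36.6 to 49.1 CPM). The macrophage sums were 535 to 567 and 408 to 504 CPM, and the neutrophil (16400 to 18900 and 18200 to 21500 CPM) and eosinophil sums (604 to 735 and 676 to 872 CPM) were not lower as ranges. The marrow stroma and bone (55.6 to 60.8 and 54.7 to 62.4 CPM) and endothelium sums (430 to 453 and 541 to 594 CPM) were not lower either. The markers' part in the Aldh1a2 gap was not tested.

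Dhrs3, which turns retinal back to retinol and is a known target of retinoic acid, moved the same way as Aldh1a2 in both comparisons with smaller changes. It stood at 49.5, 52.0 and 51.0 CPM in LUC libraries and at 34.8, 34.9 and 33.7 CPM with SETBP1-D868N, a log2 fold change of −0.56 (SE 0.035). The DMSO libraries had 34.8, 33.5, 35.6 and 42.3 CPM and the PF-9363 libraries 96.3, 91.7, 99.8 and 83.6, a log2 fold change of 1.34 (SE 0.083). Neither pair of groups overlapped.

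Rdh10, the enzyme of the first oxidation, was higher in both comparisons, though little so in the first. LUC libraries had 7.76, 7.07 and 7.43 CPM and SETBP1-D868N libraries 8.05, 8.36 and 8.32, a log2 fold change of 0.15 (SE 0.066) between groups that did not overlap. DMSO libraries had 4.17, 2.69, 4.59 and 5.08 CPM and PF-9363 libraries 8.24, 6.45, 7.16 and 7.81, a log2 fold change of 0.84 (SE 0.21), again without overlap. The 10 genes thus held an enzyme of the first step that stood slightly higher with SETBP1-D868N beside a lower Aldh1a2 and Dhrs3.

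Aldh1a1, the second retinaldehyde dehydrogenase, was low in the first experiment and near the limit of counting in the second. Its counts were 59, 56 and 57 with LUC and 82, 71 and 76 with SETBP1-D868N, a log2 fold change of 0.37 (SE 0.16). In the second experiment it held 1, 0, 0 and 3 counts with DMSO and 0, 0, 0 and 1 with PF-9363, too few for a fold. Aldh1a7 is a close copy of this gene, and how reads were split between them is not given in the sources used here.

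Aldh1a3, the remaining retinaldehyde dehydrogenase of this family, went against Aldh1a2 in both comparisons. It is not among the 10 genes and was named by its test. It stood at 7.83, 8.06 and 8.69 CPM in LUC libraries and at 22.1, 21.9 and 22.7 with SETBP1-D868N; the change was 1.44 on the log2 scale (SE 0.054), at an edgeR adjusted p of 4.86e-09. Under DMSO its counts were 25, 11, 20 and 24, and under PF-9363 they were 3, 6, 2 and 4. The change was −2.04 on the log2 scale (SE 0.45). Aldh1a3 entered the second test only through the DMSO libraries, so its p-value there is not given. The ratio of Aldh1a2 to Aldh1a3 counts within a library, a measure chosen after the values were seen, was 6.64 ± 0.919 in LUC, 1.42 ± 0.0812 in SETBP1-D868N, 0.131 ± 0.163 in DMSO and 42.6 ± 17.5 in PF-9363 libraries.

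**Figure D2:**
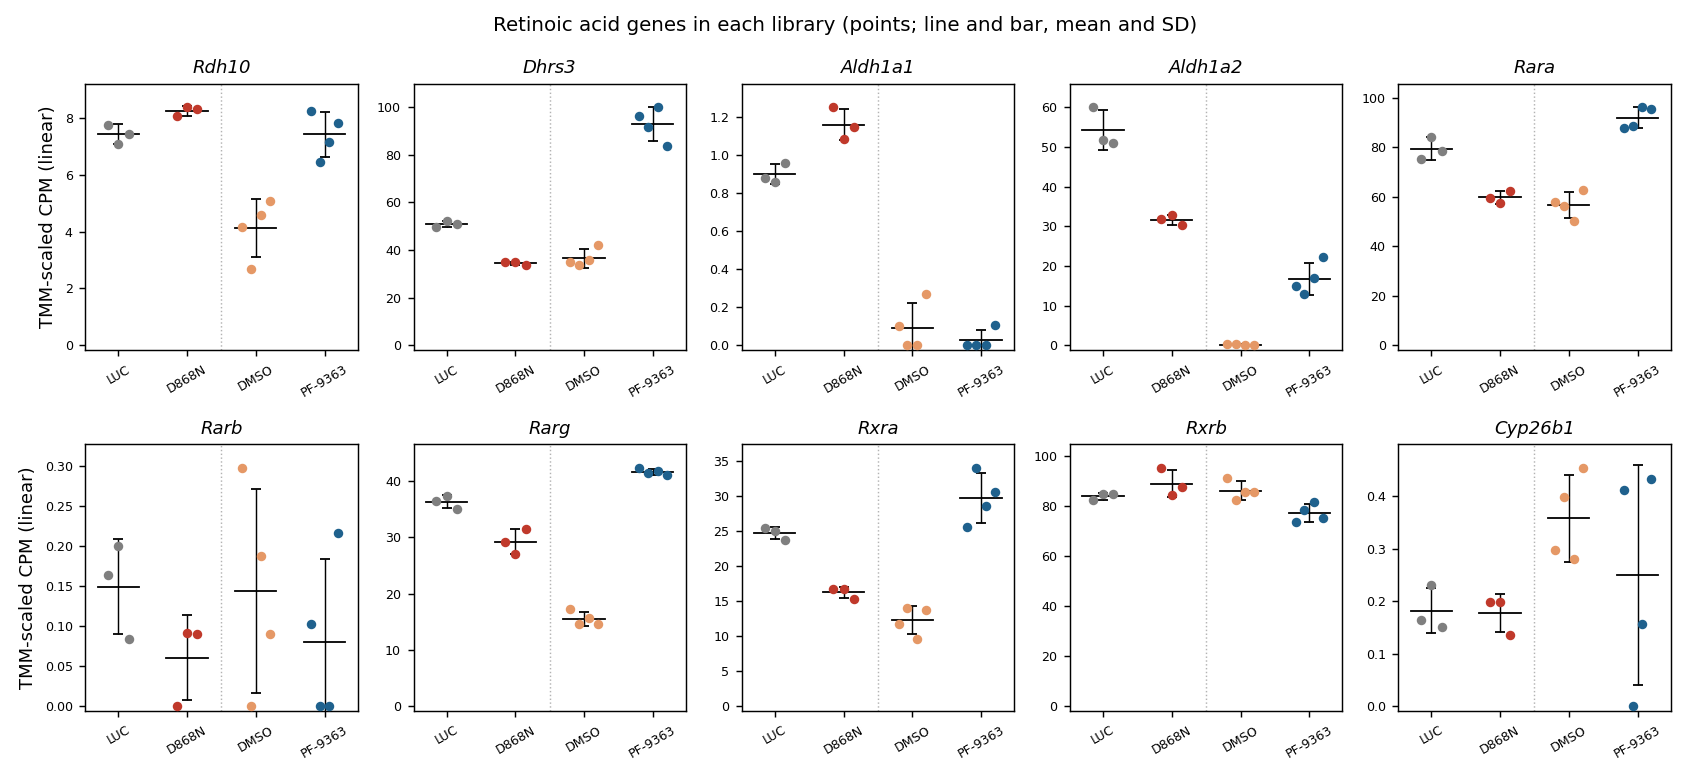
CPM of the 10 genes (y axes, linear, each panel with its own scale) in each of the 14 libraries by group, with the mean as a line and the SD as a bar. The Aldh1a2 points fall from 50.9 to 59.9 in LUC libraries to 30.3 to 32.8 with SETBP1-D868N, and lie at or below 0.399 with DMSO and at 12.9 to 22.1 with PF-9363.

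Among the receptors, Rara is the main RAR of myeloid cells. It stood at 75.3, 84.3 and 78.6 CPM in LUC libraries and at 59.7, 57.3 and 62.5 with SETBP1-D868N, a log2 fold change of −0.41 (SE 0.045). DMSO libraries had 57.9, 56.2, 50.1 and 62.8 CPM and PF-9363 libraries 87.8, 88.7, 96.0 and 95.3, a log2 fold change of 0.70 (SE 0.075). No libraries of the compared groups overlapped.

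Rarg, an RAR known for a role in blood stem cells, also stood lower with SETBP1-D868N and higher with PF-9363. It had 36.5, 37.4 and 35.2 CPM in LUC libraries and 29.1, 27.1 and 31.6 with SETBP1-D868N, a log2 fold change of −0.31 (SE 0.054). DMSO libraries had 17.3, 14.7, 15.6 and 14.6 CPM and PF-9363 libraries 42.3, 41.5, 41.9 and 41.1, a log2 fold change of 1.42 (SE 0.099). The PF-9363 libraries had an SD of 0.524 CPM, the smallest of the 4 groups for this gene.

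Rxra encodes a partner that RAR receptors need to bind DNA. It stood at 25.4, 25.0 and 23.8 CPM in LUC libraries and at 16.8, 16.7 and 15.3 with SETBP1-D868N, a log2 fold change of −0.61 (SE 0.051). DMSO libraries had 11.8, 14.1, 9.65 and 13.8 CPM and PF-9363 libraries 25.7, 34.0, 28.6 and 30.7, a log2 fold change of 1.27 (SE 0.13). Both pairs of groups stood apart.

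Rxrb, the second RXR, did not follow Rxra. It had 82.2, 84.8 and 84.6 CPM in LUC libraries and 95.1, 84.3 and 87.4 with SETBP1-D868N, and the groups overlapped (log2 fold change 0.084, SE 0.041). DMSO libraries had 91.3, 82.3, 85.4 and 85.4 CPM and PF-9363 libraries 73.5, 78.4, 81.7 and 75.2, a log2 fold change of −0.16 (SE 0.068) between groups that lay close together without overlap.

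The counts of a pair of receptors in the same library can be compared without any scaling. The ratio of Rxra to Rxrb counts was 0.309, 0.295 and 0.281 in LUC libraries and 0.176, 0.198 and 0.175 with SETBP1-D868N. It was 0.129, 0.171, 0.113 and 0.162 in DMSO libraries and 0.349, 0.434, 0.350 and 0.408 with PF-9363. The share of Rxra beside Rxrb was thus lower in every SETBP1-D868N library than in every LUC library, and higher in every PF-9363 library than in every DMSO library. The ratio of Rarg to Rara counts overlapped in the first experiment (0.458 ± 0.0226 in LUC, 0.489 ± 0.0165 in SETBP1-D868N) and was 0.276 ± 0.0360 with DMSO and 0.454 ± 0.0248 with PF-9363, without overlap. Aldh1a2 counts divided by Dhrs3 counts came to 1.07 ± 0.124 in LUC, 0.917 ± 0.0205 in SETBP1-D868N, 0.00565 ± 0.00553 in DMSO and 0.183 ± 0.0560 in PF-9363 libraries. These ratios come from the same values that chose the genes and carry no test.

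**Figure D3:**
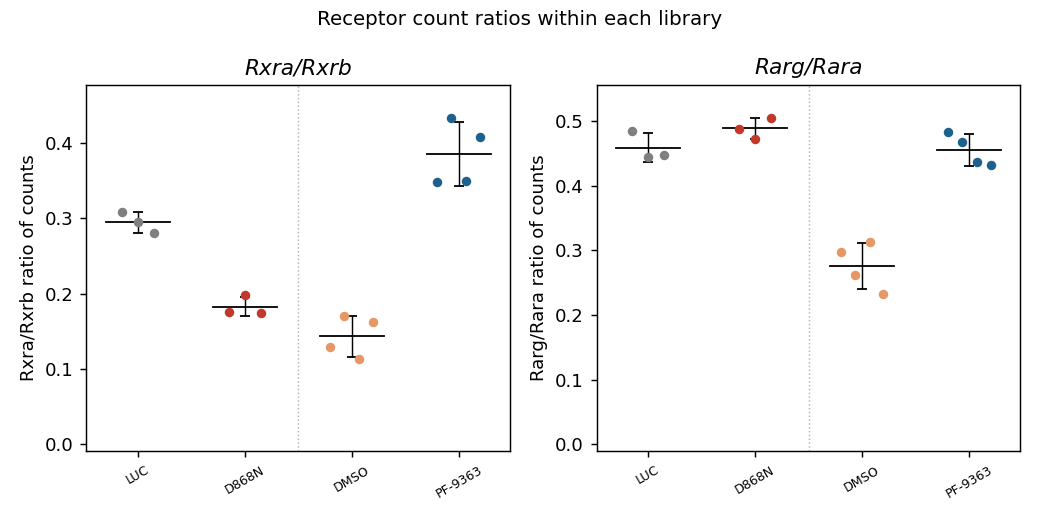
Ratios of raw counts within each library (y axes) for Rxra over Rxrb and for Rarg over Rara, by group, with the mean as a line and the SD as a bar. The Rxra to Rxrb ratio lies at 0.281 to 0.309 in LUC, 0.175 to 0.198 in SETBP1-D868N, 0.113 to 0.171 in DMSO and 0.349 to 0.434 in PF-9363 libraries.

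Rarb, an RAR that is itself induced by retinoic acid in many cells, was at the limit of counting throughout. Its counts were 11, 13 and 5 with LUC and 0, 6 and 6 with SETBP1-D868N, a scaled ratio of summed counts of 0.402 with a 95% counting interval of 0.187 to 0.812. Under DMSO they were 3, 0, 2 and 1, and under PF-9363 1, 0, 0 and 2. The gene did not pass the filter on low counts in either experiment. Its gene on chromosome 14 (GRCm38, 16430839 to 16819156, minus strand) shares 2020 of its 5265 exon bases with genes on the opposite strand, most of them with Top2b. Without knowledge of the strand handling, these few reads cannot be told apart from reads of those genes.

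The promoters were searched because Rarb and Dhrs3 are textbook targets of RAR. RAR and RXR pairs are known to bind direct repeats of a hexamer, and the search took the hexamer AGGTCA and 3 relatives of it, namely AGTTCA and also GGGTCA and also GGTTCA, with both copies in the same orientation, on both strands, with 1, 2 or 5 bases between them. Of the 10 genes, 9 had an entry in the RefSeq promoter table (GRCm38.p6), with 18 start sites. In 1 of these 18 windows such a repeat was found, that of Rarb, with 5 bases between the copies. Of all 32841 windows of 300 bases, 0.588% held a repeat with any of these spacings, 0.0974% one with 5 bases, and 43.7% a single hexamer. The 250 bases before the Rarb start (chr14:16575477-16575726, minus strand) are printed because they hold that repeat, in capitals, which lies 53 to 37 bases before the start.
Rarb upstream: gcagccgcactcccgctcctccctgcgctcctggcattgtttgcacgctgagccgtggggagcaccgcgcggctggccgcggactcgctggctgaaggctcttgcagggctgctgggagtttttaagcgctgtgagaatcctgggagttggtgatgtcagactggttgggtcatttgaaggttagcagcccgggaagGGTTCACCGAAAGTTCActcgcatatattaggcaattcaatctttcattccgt
A match is a description of the letters and no measure of binding. The repeat stood in a gene with at most 13 counts in any library, while Dhrs3, Aldh1a2 and the other matched genes held no such repeat in their windows.

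Cyp26b1, which oxidises retinoic acid to inactive products, was likewise barely counted. Its counts were 11, 15 and 9 with LUC and 13, 13 and 9 with SETBP1-D868N, a log2 fold change of −0.041 (SE 0.36). This direction was not stable: the value was 0.0077 with scaling by library size alone. Under DMSO they were 3, 4, 3 and 5, and under PF-9363 4, 0, 1 and 4, a scaled ratio of summed counts of 0.758 with a 95% counting interval of 0.292 to 1.85. A difference was not detectable at this depth.

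Cyp26a1, a breakdown enzyme readily induced by retinoic acid and not among the 10 genes, is given with values chosen after they were seen. It held 36, 28 and 29 counts in LUC libraries and 32, 47 and 48 with SETBP1-D868N (log2 fold change 0.41, SE 0.23, edgeR adjusted p 0.178). Under DMSO its counts were 6, 1, 10 and 10, and under PF-9363 0, 0, 0 and 1, a scaled ratio of summed counts of 0.0468 with a 95% counting interval of 0.00114 to 0.284. It was not tested there for its low counts, so the interval covers counting error in these 8 libraries alone.

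With SETBP1-D868N, 5 of the 9 genes that passed the filter on low counts were called lower (edgeR, adjusted p under 0.05) and 0 higher, in an experiment where 47.2% of all 15794 genes tested were called, 24.5% higher and 22.7% lower. The called genes were Aldh1a2, Dhrs3, Rara, Rarg and Rxra. With PF-9363, 6 of the 7 that passed were called higher and 1, Rxrb, lower, where 76.0% of all 13456 genes tested were called, 36.6% higher and 39.4% lower. Groups did not overlap for 7 of 9 genes in the first experiment (2 higher and 5 lower), where 56.7% of all genes tested did not overlap (29.4% higher and 27.3% lower). In the second they did not overlap for 7 of 7 (6 higher and 1 lower), against 70.3% of all genes tested (34.0% higher and 36.3% lower). The median log2 fold change was −0.314 for the 9 genes and 0.00429 for all genes in the first experiment, and 1.27 for the 7 genes and −0.0379 for all genes in the second. Since the genes were chosen from these same values, nothing is read from the counts.

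**Figure D4:**
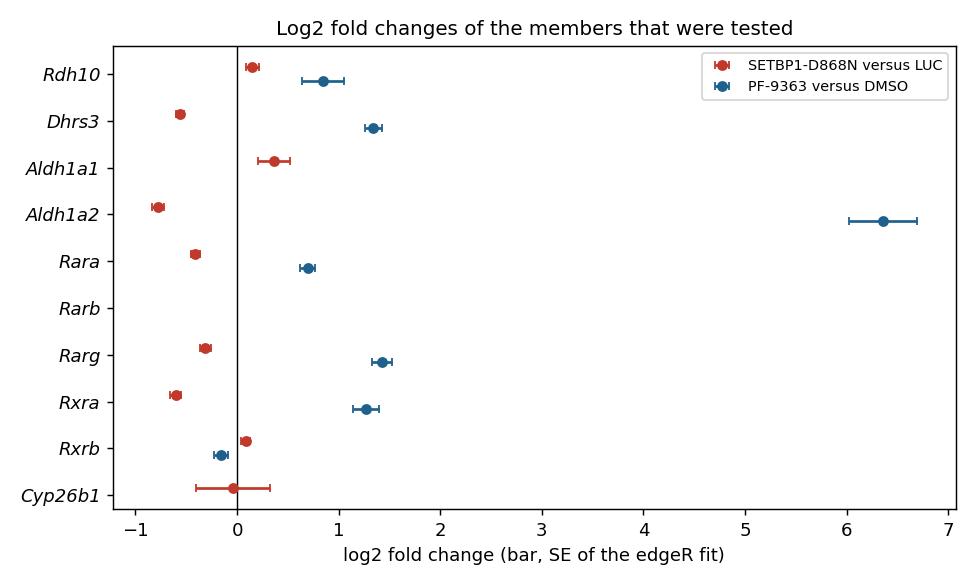
Log2 fold changes (x axis, bars are SE) of the genes that passed the filter, by gene, for SETBP1-D868N against LUC (9 genes) and PF-9363 against DMSO (7 genes). Aldh1a2, Dhrs3, Rara, Rarg and Rxra lie below 0 in the first comparison and above 0 in the second, with Aldh1a2 at −0.78 and 6.36.

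Scaling moved the second experiment as a whole. With library size alone in place of TMM, the median of all genes shifted by −0.23 and the share of higher calls among all calls went from 48.1% to 36.2%, while the members stayed at 6 higher and 1 lower. In the first experiment that share went from 51.9% to 62.1%, and Rdh10 (0.20), Rxrb (0.13) and Aldh1a1 (0.42) were then also called higher. The Rxrb call in the second experiment was lost with DESeq2 (−0.135) and with RLE scaling (−0.134).

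Markers of several cell types moved with the same groups. Markers counted here as higher or lower were called by edgeR at an adjusted p under 0.05. Of all genes tested, 24.5% were called higher and 22.7% lower with SETBP1-D868N. With PF-9363 these shares were 36.6% and 39.4%. In the first experiment 9 of 10 tested macrophage markers and 7 of 9 tested dendritic cell markers fell with SETBP1-D868N. Their sums went from 881 to 915 CPM to 535 to 567, and from 170 to 194 CPM to 102 to 113. Of the 10 neutrophil markers 7 fell, among them the late granule genes Ltf, Camp and Ngp, and 3 rose, the early granule genes Elane, Mpo and Prtn3. Their sum went from 24600 to 25600 CPM to 16400 to 18900. The mast cell and basophil list had 5 markers higher and 7 lower of 12, with a sum of 5770 to 5990 CPM in LUC and 6270 to 6390 in SETBP1-D868N libraries. With PF-9363 all 9 tested macrophage markers rose (408 to 504 CPM with DMSO, 3040 to 3640 with PF-9363), as did 4 of 5 tested dendritic cell markers (21.4 to 26.9 against 138 to 173 CPM, with Siglech at 0 and 1 marker, Flt3, lower) and 10 of 11 tested mast cell and basophil markers (1250 to 1600 against 4870 to 5850 CPM). Stem and progenitor markers had 6 of 9 tested higher and 0 lower (175 to 206 against 518 to 616 CPM). That list shares Gata2, which went from 56.1 to 297 CPM, with the mast cell list. Erythroid and megakaryocyte markers had 3 of 5 tested higher and 1 lower (50.9 to 62.2 against 235 to 260 CPM). The B, T and NK cell sum was lower (36.6 to 49.1 against 3.25 to 4.36 CPM). The part of all these markers in the differences of Aldh1a2, Dhrs3, Rara, Rarg and Rxra was not tested. Of the marrow stroma and bone markers, Col1a2, Cxcl12 and Prrx1 were at 0 in all 8 libraries of the second experiment, and Lepr and Sp7 also with PF-9363. The sum of that list, 54.7 to 62.4 CPM with DMSO and 60.4 to 69.2 with PF-9363, was mostly Runx2 (55.9 and 56.6 CPM).

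By the pattern over the 8 libraries of the second experiment, the genes most like Aldh1a2 were Gm5698, Slc11a1, Gdpd1, Fcgr1 and Acod1. The measure was the root mean square difference in centred log2 CPM, which was 0.437 for Gm5698 and 0.560 for Acod1, and 44 of 13449 genes lay within 1. Slc11a1, a metal transporter of phagocytes, went from 1.36 ± 0.256 to 57.8 ± 2.95 CPM (n = 4), and Acod1, the enzyme that makes itaconate in macrophages, from 1.25 ± 0.334 to 58.6 ± 7.11 CPM. Fcgr1, an Fc receptor that is also in the macrophage marker list, went from 0.798 ± 0.247 to 25.8 ± 3.75 CPM. Gm5698 went from 0.0745 ± 0.095 to 18.1 ± 7.99 CPM and Gdpd1 from 0.312 ± 0.0921 to 13.5 ± 1.94 CPM. Like Aldh1a2, the genes Gm5698, Gdpd1 and Fcgr1 entered the test only through the PF-9363 libraries. The genes most like Rarg were Myd88, Hps3, Epc1, Mast1 and Orai2, with differences of 0.0388 to 0.0716, but 9298 of 13449 genes lay within 1 of Rarg. The 8 libraries fall into 2 groups, so the measure includes the step between them.

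Of 83 other genes of the pathway in 6 lists, 59 were tested in the first experiment, of which 10 rose and 23 fell with SETBP1-D868N (edgeR, adjusted p under 0.05), and their median log2 fold change was −0.158. The share called was 55.9% of these genes and 47.2% of all genes tested (24.5% higher and 22.7% lower). Among the textbook genes induced by retinoic acid, 10 of 16 tested fell and 2, Egr1 and Gbx2, rose, with a median of −0.388. Zfp36l1, an RNA-binding protein that promotes mRNA decay, fell from 122 ± 0.945 to 67.4 ± 3.70 CPM, and Asb2, a ubiquitin ligase subunit named for its induction by retinoic acid in leukaemia cells, from 71.7 ± 1.43 to 42.9 ± 5.55 CPM (edgeR adjusted p 1.42e-08 and 0.00133). Plaur, the urokinase receptor, fell from 174 ± 3.10 to 126 ± 6.44 CPM and Cebpe, a transcription factor of late granulocyte maturation, from 127 ± 2.63 to 101 ± 2.94 CPM (edgeR adjusted p 8.09e-07 and 3.87e-06). Of 7 tested genes for vitamin A uptake, storage and binding, 4 fell and 0 rose. Of 9 tested nuclear receptors that pair with RXR, 4 fell and 1, Thra, rose (22.4 ± 1.02 to 27.2 ± 0.946 CPM, edgeR adjusted p 0.000415). Among 9 other retinol and retinal enzymes 4 rose and 2 fell, Aldh1a3 the only one called with at least a 2-fold change. Dhrs9 and Rdh12 were the ones that fell, from 13.3 ± 0.307 to 7.91 ± 0.572 CPM and from 23.2 ± 0.877 to 17.8 ± 0.328 CPM (edgeR adjusted p 2.07e-06 and 2.61e-05). Of 16 coactivators and corepressors 3 rose and 3 fell, and of the other breakdown enzymes and Rxrg, 2 were tested and neither was called.

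With PF-9363, 52 of the 83 genes were tested, of which 30 rose and 15 fell, with a median of 0.298; with library size alone in place of TMM these were 22 and 17, with a median of 0.0668. The share called was 86.5% of these genes and 76.0% of all genes tested (36.6% higher and 39.4% lower), and among the textbook genes induced by retinoic acid, given last, it was 76.9%. The 16 coactivators and corepressors had 12 higher and 3 lower calls, or 7 and 3 with library size alone. Crebbp and Ep300, the histone acetyltransferases that receptors recruit, rose from 35.5 ± 6.05 to 139 ± 9.50 CPM and from 137 ± 14.5 to 281 ± 14.4 CPM. Ncoa3, a coactivator, rose from 78.5 ± 5.16 to 252 ± 5.02 CPM, and Nrip1, a corepressor that binds receptors with ligand, from 7.61 ± 2.91 to 20.7 ± 3.60 CPM. Their edgeR adjusted p-values were 8.27e-15, 7.58e-14, 1.46e-19 and 1.07e-05 in that order. Hdac3, Carm1 and Prmt1 were the 3 that fell, by 0.58, 0.65 and 0.69 on the log2 scale. Ncoa3 and Carm1 share 154 and 1025 exon bases with genes on the opposite strand.

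Among the carriers of vitamin A, Rbp4, the plasma carrier of retinol, rose from 25.0 ± 4.22 to 87.4 ± 19.0 CPM (edgeR adjusted p 1.24e-05). Fabp5, a carrier of fatty acids that also binds retinoic acid, rose from 140 ± 7.97 to 504 ± 47.4 CPM (edgeR adjusted p 9.93e-20), with the reservation that it has pseudogene copies that can share reads. Only 3 of the 12 genes of that list were tested. Among the other retinol and retinal enzymes 5 of 9 rose and 3 fell. The share called was 88.9% of these 9 and 76.0% of all genes tested. Dhrs9, a retinol dehydrogenase, rose from 4.58 ± 0.457 to 20.8 ± 3.71 CPM (edgeR adjusted p 3.69e-13), and Rdh12, a retinal reductase, from 14.9 ± 1.77 to 47.3 ± 2.07 CPM (edgeR adjusted p 9.24e-15). Rdh5 rose from 0.777 ± 0.402 to 2.28 ± 0.95 CPM, though 720 of its exon bases lie in Bloc1s1 on the same strand. It entered the test only through the PF-9363 libraries, so its p-value is not given. Cyp1b1, which can oxidise retinol, rose from 3.20 ± 0.763 to 10.3 ± 2.05 CPM (edgeR adjusted p 2.34e-08).

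The receptors that pair with RXR had calls in both directions. Of 10 tested, 3 rose and 5 fell with PF-9363, or 1 and 5 with library size alone. The share called was 80% of these 10, near the 76.0% of all genes tested (36.6% higher and 39.4% lower). Thrb, a thyroid hormone receptor, fell from 5.85 ± 0.616 to 0.392 ± 0.248 CPM. It entered the test only through the DMSO libraries, so its p-value is not given. Thra, the other thyroid hormone receptor, fell from 39.7 ± 2.60 to 11.2 ± 2.80 CPM (edgeR adjusted p 3.19e-13). Thra shares 263 exon bases with Nr1d1 on the opposite strand. Nr1h3, the oxysterol receptor of macrophages, rose from 3.94 ± 0.770 to 8.33 ± 2.26 CPM (edgeR adjusted p 4.28e-05).

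Of 13 tested textbook genes induced by retinoic acid, 7 rose and 3 fell with PF-9363, with a median of 0.277, while with library size alone 6 rose and 5 fell, with a median of 0.0457. Icam1, an adhesion molecule, rose from 18.5 ± 3.09 to 112 ± 8.17 CPM (edgeR adjusted p 4.95e-19), and 511 of its exon bases lie in Gm47079 on the opposite strand. Plaur rose from 130 ± 2.03 to 428 ± 23.9 CPM (edgeR adjusted p 2.78e-20). Asb2 rose from 11.5 ± 3.19 to 28.8 ± 2.13 CPM and Zfp36l1 from 65.2 ± 9.56 to 139 ± 16.7 CPM (edgeR adjusted p 1.79e-08 and 4.82e-08); Zfp36l1 shares 1672 exon bases with Gm26669 on the opposite strand. Cebpe fell from 140 ± 18.9 to 57.3 ± 13.5 CPM (edgeR adjusted p 0.000317). The eosinophil markers, by contrast with the macrophage markers, had 6 of 7 tested members lower and 1 higher with PF-9363 (676 to 872 against 262 to 371 CPM), and the neutrophil list had 3 of 10 higher and 4 lower (18200 to 21500 against 16600 to 18000 CPM). Within that list Elane went from 1450 to 1.75 CPM, Mpo from 2320 to 6.35 and Prtn3 from 1050 to 7.31, and Camp also fell, while Ltf went from 1240 to 2680 CPM, Ly6g from 57.7 to 157 and Mmp8 from 65.6 to 239. The part of these markers in the calls of the pathway genes was not tested. Of all genes tested with PF-9363, 36.6% were called higher and 39.4% lower.

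**Figure D5:**
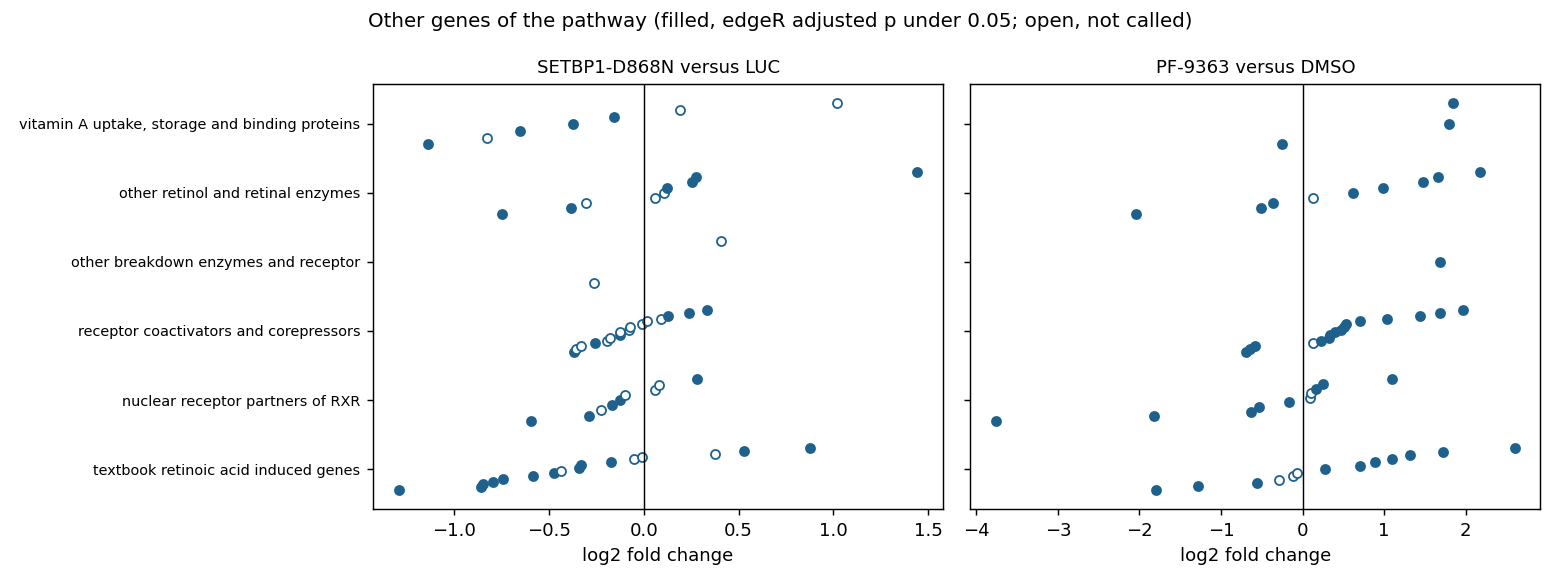
Log2 fold changes (x axes) of the tested genes in the 6 pathway lists, with 1 point per gene, filled where the edgeR adjusted p was under 0.05, for SETBP1-D868N against LUC (59 genes) and PF-9363 against DMSO (52 genes). The textbook genes induced by retinoic acid lie mostly below 0 in the first comparison (10 of 16 lower), and the coactivators and corepressors mostly above 0 in the second (12 of 16 higher).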

How the data were processed

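For each experiment the authors deposited a table of raw counts, whole numbers for each gene symbol and library, per the labels and the file headers. STAR, DESeq2 and the mouse builds GRCm38 and mm10 are named in the submitters' processing notes, without their roles; the counting program, annotation, strand handling and removal of duplicates are not given in the sources used here. RNA input was 500 ng with a Watchmaker kit for the first experiment and 100 ng with libraries made by Novogene for the other, per the labels' protocols, so the experiments were analysed apart. All 14 columns were mapped to samples by their titles.

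Each whole table was filtered with filterByExpr (minimum count 10, minimum total count 15), scaled by TMM and tested with the quasi-likelihood test of edgeR 4.0.16 in R 4.3.3, with robust estimation, Benjamini-Hochberg adjustment and calls at an adjusted p under 0.05. SE is the absolute log2 fold change over the square root of F. CPM uses TMM-scaled totals. Intervals of count ratios are exact binomial intervals, and they cover counting error only. DESeq2 1.42.0, limma-voom 3.58.1, other scalings and filters, a replicate block and leaving out each library were alternatives. Gene positions, lengths and overlaps are from GENCODE M21 (GRCm38), promoter sequences from RefSeq.

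The members and lists were chosen with earlier results of these data known. From the pathway lists the rule names genes called with an absolute log2 fold change of at least 1 and at least 1 CPM in the higher group, at most 5 per list and direction; Cyp26a1, Egr1, Gbx2, Hdac3, Carm1 and Prmt1, and for SETBP1-D868N also Zfp36l1, Asb2, Plaur, Cebpe, Thra, Dhrs9 and Rdh12, were named after their values were seen. A gene that this rule names is not reported here.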

Additional observations from a re-analysis of the deposited data

Results flagged for a closer look

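Aldh1a1 in the PF-9363 libraries was flagged because 1 of 4 libraries, replicate 4 at 0.1085 CPM, lay apart from the other 3, which were at 0. That value is 1 count. Of 20 groups of 4 libraries examined, 1 stood out in this way, and chance gives about 1 in 20 for normally distributed values. With the other 3 libraries at 0, any count in replicate 4 would have been flagged, so that rate does not apply to this gene.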

How the results depend on the processing

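For SETBP1-D868N 6436 to 7902 genes were called over 14 alternatives, and for PF-9363 10013 to 11566 over 16. Pathway genes called numbered 29 to 41 and 39 to 48. Leaving out 1 library at a time gave 6436 to 7086 and 10013 to 10261 genes, and 29 to 37 and 42 to 46 pathway genes. The level order kept 14 of 40 positions with the median transcript length. Cyp26b1 with SETBP1-D868N turned from −0.041 to 0.0077 with library size alone, 0.165 without LUC replicate 2 and 0.117 without SETBP1-D868N replicate 3, all within its SE, and leaving out 1 library at a time gave −0.148 to 0.165. The call of Rxrb with PF-9363 was also lost without DMSO replicate 1 (−0.136) and without PF-9363 replicate 1 (−0.133), 2 (−0.155) or 4 (−0.139), and a call of Rxrb with SETBP1-D868N was gained without SETBP1-D868N replicate 2 (0.12). Each pathway gene described by name as having risen or fallen, those chosen after their values were seen included, kept its direction and its call in the alternatives that gave it a value. This does not hold for every gene in the counts of the lists, which changed with library size alone.

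Replicate numbers are shared between groups. Same-numbered libraries did not deviate together (correlations of −0.0968 to −0.0369 for SETBP1-D868N and LUC, −0.0402 to 0.00753 for PF-9363 and DMSO), and 0 libraries correlated best with their own number, so the numbers were not taken as pairs. With the replicate block 6640 and 10124 genes and 32 and 45 pathway genes were called, and the call of Rxrb with PF-9363 was lost (−0.159). The cause of these changes was not tested. Depth limits Rarb, Cyp26b1, Aldh1a1 and, with DMSO, Aldh1a2.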
